A study of Mus musculus with 6 samples.

Results

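The course of experimental autoimmune encephalomyelitis (EAE) in mice that lack the microRNA miR-155 was followed from day 13 to day 21 after induction, in leukocytes of the central nervous system. The members were cell barcodes of the knockout libraries of those days in which 200 or more genes were detected and no more than 10% of the unique molecular identifiers (UMIs, 1 per captured transcript) came from mitochondrial genes. They numbered 6859 of the 20007 barcodes kept over all 6 libraries of the series, with 3099 on day 13 and 3760 on day 21. Both groups were miR-155KO mice of the strain C57BL/6 with induced EAE, while the labels name neither the allele nor the inducing agent. Set beside them as values were the KO library of day 0 and the libraries of wild-type (WT) C57BL/6 mice with EAE on days 13 and 21, which held 9259 kept barcodes together. Each group had 5 mice according to the labels and gave 1 library of live, DAPI-negative, CD45-positive sorted cells, so single mice cannot be told apart. The labels name the brain as tissue, and their extraction protocol names brain and spinal cord.

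EAE is an induced autoimmune attack on myelin that is used as a model of multiple sclerosis: T cells specific for myelin enter the central nervous system, recruit monocytes and neutrophils, and activate the resident microglia. miR-155 is a microRNA that activated leukocytes switch on, and it is known for lowering the messages of inhibitors of inflammatory signalling such as Socs1. Microglia are the resident macrophages of the brain; interferon-gamma from T cells drives them to display peptides on MHC class II, while their resting programme includes P2ry12, Tmem119 and Gpr34. The mature strand of the deleted microRNA is shown because its loss defines every knockout library; it lies at chr16:84714143-84714165 on the plus strand of GRCm38.p6, per RefSeq, and capitals mark the seed, bases 2 to 8 from the 5′ end.
mmu-miR-155-5p: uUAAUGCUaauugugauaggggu
The host transcript of miR-155, Mir155hg, had 0 UMIs in the KO library of day 13 and 1 UMI in that of day 21. The WT libraries of the same days held 45 and 59. On day 13 a count of 0 allowed up to 0.166 CPM, taking 3 counts as the limit; CPM is the usual scaling of a gene's counts to the total of a library or class.

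The day 13 library held 18066205 UMIs and the day 21 library 15504139, with a median of 4341 and 3019 UMIs per barcode. The mitochondrial limit removed 2 and 3 barcodes, and the 2 libraries shared 7 barcode sequences, against 5 to 32 for all pairs of the series. With 1 library on each side no test was possible and no difference has a replicate check. Library titles carry a number prefix that is the same within a day and differs between days, so day and run cannot be told apart. Intervals are at the 95% level and reflect counting error alone. Barcodes were assigned to a class by the markers they contained, and names such as microglia-like rest on those markers. UMIs were summed per class and library; a gene counted as measured at 10 CPM or more in either library, and as past the fold where log2 of the ratio of CPM + 1 reached 2-fold. A class that holds fewer cells and a class whose cells carry less RNA give the same smaller sum, and the CPM scale does not separate them.

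The leukocytes of the knockout mice were composed differently on the 2 days. Microglia-like barcodes, the largest class on day 21, made up 14.2% of kept barcodes on day 13 and 45.4% on day 21, a ratio of 3.20 (2.91 to 3.51). On day 0 the KO library held 72.5%. Neutrophil-like barcodes, the short-lived granulocytes of the blood, made up 8.20% and 15.5%, a ratio of 1.89 (1.64 to 2.17). The classes that enter from blood and present antigen or respond to it had smaller shares on day 21. Shares are parts of one total, so a larger microglia-like share by itself leaves smaller shares for the other classes. Numbers of cells per mouse were not measured, so a smaller share is not a count of cells lost. Monocyte/macrophage-like barcodes were 16.8% and 6.65%, a ratio of 0.395 (0.343 to 0.456). T-like barcodes were 15.3% and 8.38%, with a ratio of 0.548 (0.479 to 0.626). B-like barcodes were 16.2% and 8.06%, with a ratio of 0.498 (0.436 to 0.570). Both dendritic classes had small shares. Plasmacytoid dendritic-like barcodes, the interferon-producing dendritic cells, were 4.90% and 0.931%, and conventional dendritic-like barcodes 2.84% and 1.01%. NK-like barcodes were 0.968% and 1.04%, a ratio of 1.07 whose interval (0.667 to 1.72) spans 1. Basophil or mast-like barcodes numbered 3 and 12, myeloid progenitor-like barcodes 7 and 7, and the border macrophage and plasma cell gates held 0 barcodes in both libraries, with exact upper limits of 0.119% and 0.0981%. A further 20.3% and 12.6% of barcodes met no gate, mostly because markers of more than 1 class were present (581 of 629 and 359 of 472).

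In the WT libraries the same 2 days differed in another way. The WT microglia-like share was 25.7% on day 13 and 9.44% on day 21, a ratio of 0.368, where the knockout ratio was above 1. The WT T-like share was 18.5% and 34.0%, a ratio of 1.84. The B-like ratio was 0.381 and the plasmacytoid dendritic-like ratio 0.188 in WT, on the same side of 1 as in the knockout. The difference between the genotypes was not tested. When barcodes with 2 or more markers of any other class were left out, the KO neutrophil ratio was 2.97 and the T-like ratio was 0.837 (0.659 to 1.06), an interval that spans 1.

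**Figure D1:**
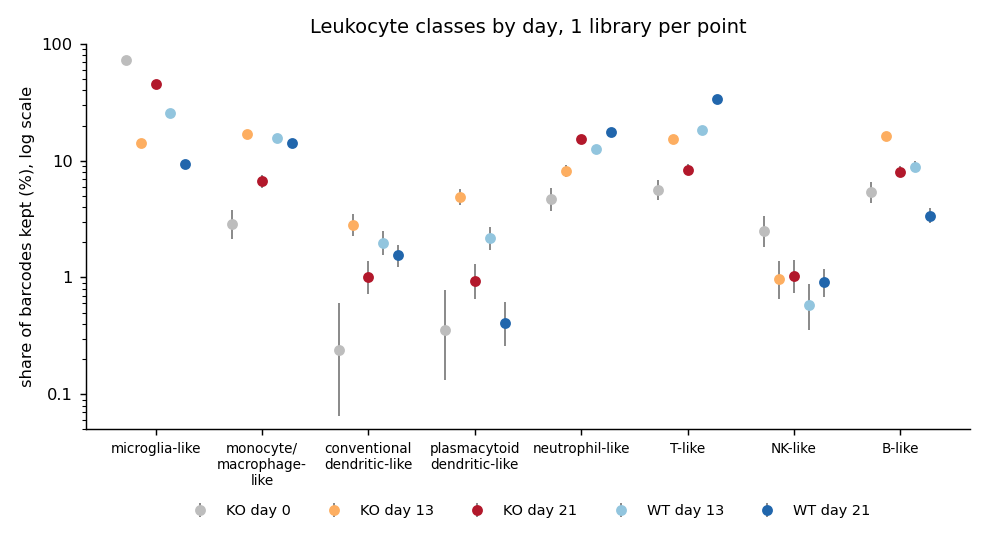
Share of kept barcodes (percent, log axis) in each gated class, for the KO libraries of days 0, 13 and 21 and the WT libraries of days 13 and 21, with points for libraries and bars for exact 95% binomial intervals. The KO microglia-like share is 72.5%, 14.2% and 45.4% over the 3 days, and the WT share is 25.7% on day 13 and 9.44% on day 21.

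The 10 genes with the highest fold over other classes, gate genes among them, were set beside each class name. Those that were not gate genes included Tmem119, P2ry12 and C1qa for microglia-like barcodes on both days, and S100a8, Ngp and Camp for neutrophil-like barcodes on day 13. No class had more markers of another class than of its own among the 10. Classes with at least 50 barcodes in both KO libraries were compared across genes: 440 and 1708 microglia-like, 521 and 250 monocyte/macrophage-like, 254 and 581 neutrophil-like, 474 and 315 T-like, and 501 and 303 B-like barcodes.

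Microglia-like barcodes carried more of the resting programme and much less of the interferon and antigen presentation programmes on day 21 than on day 13. Of the 7676 genes measured in them, 593 (7.73%) were past the fold, 253 of them (3.3%) higher and 340 (4.43%) lower on day 21, and the median log2 ratio of all measured genes was 0.00. Depth was close, with a median of 2917.5 UMIs per barcode on day 13 and 2734 on day 21. Of the 20 homeostatic microglia genes, all measured, 6 were higher past the fold, none was lower, the median log2 ratio was 0.74, and in every one of the 20 the day 21 level lay between the levels of day 13 and day 0. The day 13 level was below day 0 in all 20. In WT 0 of 20 were past the fold in either direction, where 1.35% of all genes were higher, and the median was 0.14.

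Fcrls, a scavenger-type receptor restricted to microglia in the brain, had 2841 CPM on day 0, 238 on day 13 and 1741 on day 21, which is 7.33-fold higher on day 21 than on day 13 (6.60 to 8.16). Gpr34, a receptor for lysophosphatidylserine, had 2344, 283 and 1174 CPM, a ratio of 4.15 (3.76 to 4.59) between days 21 and 13. P2ry12, the ADP receptor that guides microglial processes, had 4926, 771 and 2194 CPM, a ratio of 2.84 (2.68 to 3.02). The receptors therefore followed one order, day 13 lowest and day 0 highest, with the day 21 level of Fcrls nearest to day 0. Slc2a5, the fructose transporter, was 2.61-fold higher (2.25 to 3.04) and Cst3, the secreted protease inhibitor cystatin C, 2.38-fold higher (2.35 to 2.42), from 12280 to 29265 CPM. Siglech, which is also one of the plasmacytoid dendritic gate genes, was 2.14-fold higher (1.99 to 2.31). The other 14 genes were between 1.20- and 1.98-fold higher. Among them were Tmem119, with 1459 and 1948 CPM, and Cx3cr1, the fractalkine receptor, with 907 and 1628 CPM.

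Single barcodes showed the same order when each was thinned to 1400 UMIs. The median microglia-like barcode then held 37 UMIs of the homeostatic list on day 13 and 76 on day 21, against 131 on day 0. It held 37 UMIs of MHC class II genes on day 13, with quartiles of 23.75 and 51, and 3 on day 21, with quartiles of 1 and 11. The quartile ranges of MHC class II did not overlap, so the lower level was found in most barcodes and not in a few. For the interferon-gamma list the medians were 6 and 2 UMIs. In WT the medians were 38 and 50 for the homeostatic list, 26 and 23 for MHC class II and 4 and 3 for interferon-gamma.

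**Figure D2:**
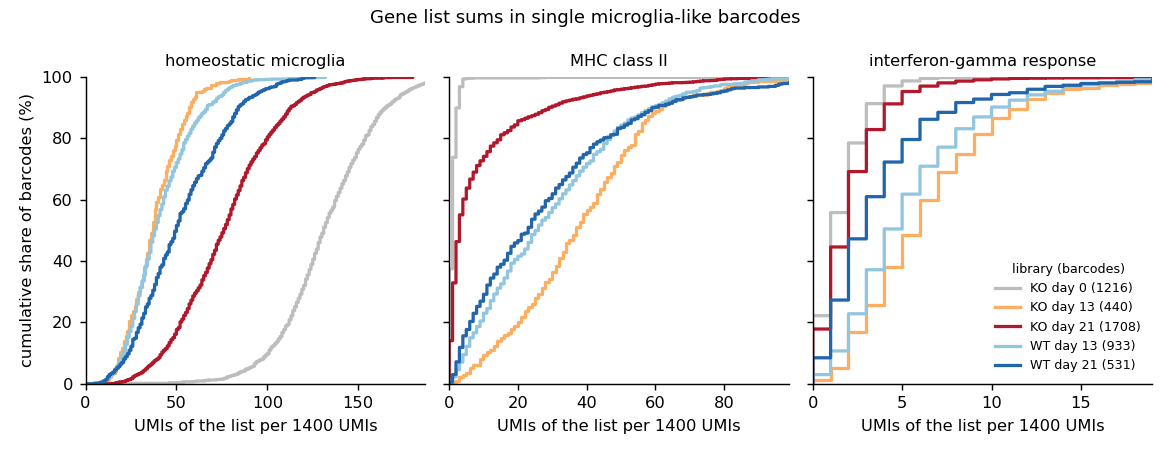
Cumulative share of microglia-like barcodes (percent) against the UMIs of a gene list per 1400 UMIs, for the homeostatic, MHC class II and interferon-gamma lists, with 1 curve per library. For MHC class II the KO median is 37 on day 13 and 3 on day 21, near the day 0 median of 1, while the WT medians are 26 and 23.

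Genes that interferon-gamma induces were lower on day 21 nearly throughout the list. Of 19 measured, 16 were lower past the fold and 0 higher, where 4.43% of all microglia-like genes were lower, and the median log2 ratio was -1.95. In all 19 the day 13 level was above day 0. Gbp2, a guanylate-binding protein that attacks the vacuoles of intracellular pathogens, had 7.66 CPM on day 0, 853 on day 13 and 89.3 on day 21, which is 9.56-fold lower on day 21 than on day 13 (8.61 to 10.6). Gbp4 of the same family had 120 and 6.77 CPM, 17.7-fold lower (12.4 to 26.0). Iigp1, an immunity-related GTPase, had 414 and 36.6 CPM, 11.3-fold lower (9.64 to 13.3). Gbp4, Iigp1 and Gbp2 had the lowest ratios of the measured members.

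A transcription factor and the feedback inhibitor of that pathway were lower by smaller folds. Irf1, an interferon-induced transcription factor, had 186 and 64.0 CPM, 2.91-fold lower (2.48 to 3.41). Socs1, the feedback inhibitor of the pathway and a known target of miR-155, had 66.3 and 15.2 CPM, 4.37-fold lower (3.23 to 5.91). The 3 members that were not past the fold were Irf8, with 921 and 741 CPM, Irgm2, with 30.9 and 17.9 CPM, and the T cell attractant Cxcl9, with 35.5 and 23.8 CPM. Cxcl10, which binds the same receptor as Cxcl9, was 6.99-fold lower (6.05 to 8.09), from 367 to 52.5 CPM. In WT 0 of 19 were past the fold, where 1.8% of all genes were lower, and the median was -0.53.

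Type I interferon response genes went the same way. Of 22 measured, 17 were lower past the fold and 0 higher, with a median of -1.30, and all 22 had day 21 levels between those of day 0 and day 13. Isg15, a ubiquitin-like modifier, had 20.3, 392 and 93.3 CPM over the 3 days, 4.2-fold lower on day 21 than on day 13 (3.73 to 4.74). Irf7, the factor that amplifies type I interferon, was 3.72-fold lower (3.17 to 4.36), and Zbp1, a sensor of nucleic acid, 6.10-fold lower (5.27 to 7.09). The WT median was -0.56.

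Stretches before the starts of 3 of these genes are shown because they hold the letters that interferon-activated factors are known to bind. Each is the 250 bases before the start of the gene in GRCm38.p6, per RefSeq, on the gene's own strand, with capitals for matches to GAS (TTCNNNGAA) or ISRE (GAAA, any 2 bases, GAAA), searched on both strands, where matches may overlap. The stretch of Gbp2 is chr3:142620413-142620662 on the plus strand and holds 1 ISRE. That of Igtp, an immunity-related GTPase 3.97-fold lower on day 21 (3.44 to 4.58), is chr11:58199306-58199555 on the plus strand and holds a GAS and an ISRE. That of Isg15 is chr4:156200819-156201068 on the minus strand and holds 3 overlapping ISRE matches.
Gbp2: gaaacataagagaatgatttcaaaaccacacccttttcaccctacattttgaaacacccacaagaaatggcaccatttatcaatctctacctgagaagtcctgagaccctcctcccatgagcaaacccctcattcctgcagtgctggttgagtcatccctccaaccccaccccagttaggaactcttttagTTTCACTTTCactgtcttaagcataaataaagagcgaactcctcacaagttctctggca
Igtp: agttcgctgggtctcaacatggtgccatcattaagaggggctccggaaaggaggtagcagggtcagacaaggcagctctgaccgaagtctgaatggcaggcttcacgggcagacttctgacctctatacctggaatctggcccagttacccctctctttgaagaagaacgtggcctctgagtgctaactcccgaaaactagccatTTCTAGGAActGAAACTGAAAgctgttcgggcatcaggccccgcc
Isg15: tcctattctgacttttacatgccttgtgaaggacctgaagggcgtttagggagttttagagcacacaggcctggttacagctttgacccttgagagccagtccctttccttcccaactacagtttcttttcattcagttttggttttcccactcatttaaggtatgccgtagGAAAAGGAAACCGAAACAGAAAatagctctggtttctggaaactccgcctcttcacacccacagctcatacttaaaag
Of all 27025 genes with such a stretch, 8.13% held a GAS match, 3.46% an ISRE match and 11.1% either. Of the 20 interferon-gamma genes 13 had a stretch, of which 6 held GAS, 9 ISRE and 11 either. Of the 24 type I interferon genes 18 had one, of which 3 held GAS, 10 ISRE and 11 either. In the homeostatic list 2 of 14 held either, and in the MHC class II list 1 of 8. A match describes letters only, and whether a factor bound there was not measured.

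The MHC class II list, whose products display peptides to helper T cells, was lower by similar folds in the microglia-like class. Of 10 measured, 9 were lower past the fold and 0 higher, with a median of -1.66 against 0.06 in WT. Cd74, the invariant chain that escorts class II molecules, had 198 CPM on day 0, 15331 on day 13 and 4161 on day 21, 3.68-fold lower on day 21 (3.62 to 3.75). H2-Ab1, the class II beta chain, had 3788 and 1059 CPM, 3.58-fold lower (3.45 to 3.71), and H2-Aa, its alpha partner, 3192 and 932 CPM, 3.43-fold lower (3.29 to 3.56). The chains of one dimer therefore had nearly the same ratio. Ciita, the co-activator that switches on the class II locus, had 34.1 and 4.21 CPM, 8.11-fold lower (4.88 to 13.9). The exception was H2-Ob, a modifier of peptide loading that B cells use, with 27.6 and 29.5 CPM. In WT, H2-Ab1 had a log2 ratio of 0.06, Cd74 of -0.08 and Ciita of -0.29.

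MHC class I and its peptide loading genes were lower by less. Of 18 measured, 8 were lower past the fold and 0 higher, with a median of -0.91. The peptide transporter subunit Tap1 had 452 and 150 CPM, 3.01-fold lower (2.71 to 3.33), whereas Tap2 had 95.2 and 95.5 CPM. The proteasome activators Psme1 and Psme2 were 2.34- and 2.23-fold lower. The class I chains themselves were closer between days: H2-K1 had 2639 and 1894 CPM, H2-D1 4189 and 3687 CPM, and B2m, the light chain, 8733 and 7944 CPM. All 3 remained above their day 0 levels of 466, 911 and 3667 CPM.

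Of 12 measured chemokines, 6 were lower past the fold and 1 higher. Ccl7, a monocyte attractant, had 303 and 52.1 CPM, 5.82-fold lower (5.01 to 6.77). Ccl2, which binds the same receptor on monocytes, had 740 and 253 CPM, 2.93-fold lower (2.70 to 3.17), and Ccl12 was 2.01-fold lower (1.93 to 2.09). Cxcl13, the B cell attractant, was the member past the fold in the other direction, with 7.88 and 24.0 CPM (3.04-fold, 1.68 to 6.04). Ccl3 and Ccl4, which microglia also release on dissociation, had 322 and 493 CPM and 347 and 357 CPM. Among 13 inflammatory cytokine and NF-kB genes, 3 were lower and 0 higher: Il18bp, the decoy that binds interleukin-18, was 12.8-fold lower (10.0 to 16.6), Tnf 2.32-fold lower (1.79 to 2.99), and Il1b 3.92-fold lower (2.95 to 5.22). The Il1b result depended on barcodes with markers of other classes: without them its log2 ratio was 0.51.

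Disease-associated microglia genes, a programme of lipid handling and phagocytosis described in degenerating brain, did not go with the interferon genes. Of 19 measured, 4 were higher past the fold and 0 lower, where 3.3% of all genes were higher, with a median of 0.25. Lpl, lipoprotein lipase, had 10.5 and 84.5 CPM, 8.05-fold higher on day 21 (4.90 to 14.2), and a WT log2 ratio of 0.02. Gpnmb, a glycoprotein of lipid-laden macrophages, had 1.31 and 23.6 CPM from 2 UMIs on day 13, a ratio of 18 (4.88 to 150). Spp1, osteopontin, was 3.06-fold higher (2.10 to 4.60) and the pyrophosphate transporter Ank 4.51-fold higher (2.00 to 12.6). Others of the list were nearly level: Apoe, the lipid carrier, had 666, 5862 and 6962 CPM over the 3 days, and Axl, a receptor for dying cells, 73.5 CPM on day 13 and 71.2 on day 21. Apoe was therefore far above day 0 on both days, whereas the homeostatic and class II genes were nearer to day 0 on day 21 than on day 13. All 16 lysosomal genes were within the fold, with a median of 0.11.

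Of 12 complement genes 3 were lower and 1 higher past the fold, where 4.43% and 3.3% of all genes were, with a median of -0.08. The C1q chains were level, as for C1qa with 11987 and 11502 CPM. Cfb, factor B of the alternative pathway, was 6.98-fold lower (3.85 to 13.1) and C4b 2.49-fold lower (2.13 to 2.91). Of 22 cell cycle genes 8 were lower and 0 higher, with a median of -0.77, among them Ccnb2, cyclin B2, with 43.3 and 13.7 CPM. WT microglia-like barcodes had 12 of 23 lower, where 1.8% of all WT genes were, and a median of -1.01. Immediate early genes, which respond to dissociation as well as to stimuli, had a median of 0.57 with 2 of 16 higher, and the WT median was 0.74. The heat shock gene Hspa1a had 84.7 and 411 CPM, 4.86-fold higher (4.07 to 5.85), with a WT log2 ratio of 1.83. The part of handling in these values was not tested.

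Apart from genes on the lists, the largest ratios by the bound nearest 1 included genes of other cell types. Lower on day 21 were Saa3, an acute phase protein, with 60.4 and 0.732 CPM, Gzma, a granzyme of cytotoxic lymphocytes, with 95.2 and 2.20 CPM, Ccr7, a homing receptor, with 41.4 and 1.83 CPM, and Ifi47, an interferon-induced GTPase, with 101 and 8.97 CPM (11.3-fold, 8.13 to 15.9). Car1, the red cell carbonic anhydrase, had 36 UMIs on day 13 and 0 on day 21. Higher were Thrsp, a regulator of fat synthesis, with 11.8 and 77.8 CPM, Camp, a neutrophil granule peptide, with 38.1 and 178 CPM, and Ms4a7, Gm13889 and Tmem204, each with 1 UMI on day 13 and with 88, 96 and 75 on day 21. On day 0 the KO microglia-like class held Thrsp at 130 CPM, Gm13889 at 43.8 and Tmem204 at 27.5, above the levels of both later days. Camp had 40.2 CPM on day 0 and Ms4a7 2.39. Marker sums of other cells differed between days 13 and 21 as well. The 7 monocyte/macrophage markers summed to 413 CPM on day 13, with Vcan at 0, and to 149 on day 21. The 11 T cell markers summed to 121 and 55.3 CPM, the 11 neutrophil markers to 271 and 397 CPM. The 7 border macrophage markers summed to 91.9 CPM with Cd163, Lyve1 and Colec12 at 0, and to 221 CPM with Cd163 and Lyve1 at 0; one of them, Mrc1, had 4.60 and 30.4 CPM.

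Those sums could bear on the lists, so the comparison was repeated on the 278 and 1014 microglia-like barcodes with at most 1 marker of any other class. The interferon, MHC class II and homeostatic lists kept their direction. Of 19 interferon-gamma genes 17 were lower, where 4.12% of all genes were lower in that comparison, with a median of -2.07. For MHC class II 9 of 10 were lower with a median of -1.86, for type I interferon 20 of 23 with a median of -1.52, and 6 of 20 homeostatic genes were higher, where 4.94% of all genes were, with a median of 0.68. Of 18 disease-associated microglia genes 3 were higher and 1 lower, with a median of 0.11 against 0.15 in WT barcodes chosen the same way. The log2 ratio of Fcrls was 2.71, of Lpl 2.77, of Gbp2 -3.70 and of Ciita -3.41. Cxcl9 was then past the fold, at -2.26. Car1 was at 0 UMIs on both days, Gzma had 3 and 5 UMIs, Ccr7 4 and 1, Ms4a7 1 and 14 and Saa3 14 and 0. The class totals there were 823002 and 2764732 UMIs. Whether such small numbers of UMIs came from microglia was not tested.

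**Figure D3:**
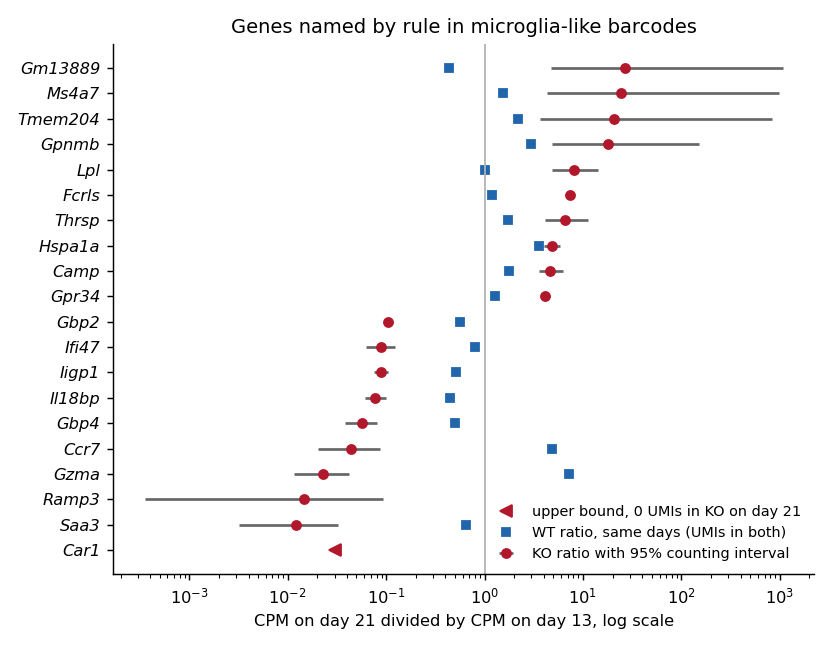
Ratio of CPM on day 21 to day 13 (log axis) in microglia-like barcodes for the 10 genes most clearly higher and the 10 most clearly lower in KO, with bars for exact 95% intervals and squares for the WT ratio. Car1 is drawn as an upper bound, since it had 0 UMIs on day 21; Fcrls lies at 7.33 in KO.

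Monocyte/macrophage-like barcodes, cells that enter from the blood, also had less of the interferon-gamma programme on day 21, and less of several effector programmes of inflammatory macrophages. Of 6937 measured genes 11.8% were past the fold, 6.07% higher and 5.74% lower, and the median log2 ratio was 0.08. Median depth was close, at 5372 and 5608.5 UMIs per barcode. Of 19 interferon-gamma genes 15 were lower and 0 higher, with a median of -2.03 against -0.53 in WT. Iigp1 was 11.6-fold lower (8.23 to 16.9), from 252 to 21.8 CPM, and Gbp2 6.26-fold lower (5.58 to 7.05), from 1266 to 202 CPM. Of 23 type I interferon genes 7 were lower and 0 higher, with a median of -0.81.

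Alternative activation and hypoxia genes were lower in 5 of 12 and higher in 0, with a median of -0.92 against 0.04 in WT. Arg1, the arginase of wound-type macrophages, had 168 and 20.5 CPM, 8.19-fold lower (5.73 to 12.1). Chil3, the chitinase-like protein Ym1, had 9284 and 1544 CPM, 6.01-fold lower (5.77 to 6.27), with a WT log2 ratio of -0.59. Spp1, which was higher in microglia-like barcodes, was 5.42-fold lower here (3.89 to 7.78), from 132 to 24.3 CPM. The glucose transporter Slc2a1 was 3.31-fold lower (2.35 to 4.76), and 6 of 17 glycolysis genes were lower with a median of -0.92, among them Tpi1, triosephosphate isomerase, at 2.95-fold (2.63 to 3.31).

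Chemokines of the monocyte/macrophage-like class were lower in 7 of 12 and higher in 1, with a median of -1.37. Ccl5, a T cell attractant, had 2750 and 347 CPM, 7.92-fold lower (7.26 to 8.65). Cxcl9 had 360 and 60.1 CPM, 5.98-fold lower (4.84 to 7.46), Cxcl10 525 and 115 CPM, 4.56-fold lower (3.91 to 5.35), and Cxcl2, a neutrophil attractant, 127 and 32.6 CPM, 3.88-fold lower (2.90 to 5.31). The WT values lay on the other side for most members: the WT median was 0.66, with 5 genes higher where 2.39% of all WT genes were, and the WT log2 ratios were 0.08 for Cxcl9, 1.04 for Cxcl10, 0.54 for Cxcl2 and -1.60 for Ccl5. The difference between genotypes was not tested. The member that was higher was Ccl22, a dendritic gate gene, with 3.22 and 22.4 CPM; without barcodes holding other classes' markers it had 5 and 1 UMIs.

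Receptors and opsonins were lower as well. Of 5 Fc-gamma receptor genes 3 were lower: Fcgr4, an activating receptor for IgG, had 513 and 82.5 CPM, 6.22-fold lower (5.2 to 7.5), Fcgr2b, the inhibitory receptor, was 2.62-fold lower (2.32 to 2.96) and Fcgr3 2.42-fold lower (2.24 to 2.61). The Fc-gamma receptor median was -1.27 against -0.62 in WT. Of 12 complement genes 7 were lower with a median of -1.45, including C1qb with 1304 and 385 CPM. The WT complement median was -0.87. In barcodes with at most 1 marker of another class the complement median was -0.96 in KO and -1.04 in WT. MHC class II was lower in 4 of 9 genes, with a median of -0.96 and a WT median of -0.75, and H2-Ab1 had 6149 and 2618 CPM. Ciita had 42.6 and 33.9 CPM, a ratio of 0.797 whose interval (0.568 to 1.10) spans 1, unlike in microglia-like barcodes. Lyz2, the lysozyme of all these cells, had 29282 and 31729 CPM.

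Among the genes with the highest ratios on day 21, 4 are described here, chosen after their values were seen. Cx3cr1, the fractalkine receptor, had 24.5 and 127 CPM, 5.2-fold higher (3.97 to 6.86). Nr4a1, an orphan nuclear receptor, had 4.51 and 40.3 CPM, 8.93-fold higher (4.95 to 17.3). Ace, angiotensin-converting enzyme, had 0.967 and 26.2 CPM, a ratio of 27.1 (8.65 to 137), and Hpgd, which degrades prostaglandins, 2.26 and 44.1 CPM, a ratio of 19.6 (9.0 to 50.5). Of 23 cell cycle genes 18 were higher and 0 lower, with a median of 1.39, where 6.07% of all genes were higher. Hmgb2, a chromatin protein of dividing cells, had 249 and 1026 CPM, 4.12-fold higher (3.78 to 4.50), and Rrm2, of nucleotide synthesis, was 4.22-fold higher (3.04 to 5.93). In WT 17 of 23 cell cycle genes were higher, where 2.39% of all WT genes were, with a median of 1.21. Top2a had a WT log2 ratio of 2.20 against 1.39 in KO.

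Among genes off the lists the lowest on day 21 were Saa3, with 2655 and 99.2 CPM (26.8-fold, 22.8 to 31.6), Ly6a, the interferon-induced surface protein Sca-1, with 2336 and 245 CPM (9.53-fold, 8.60 to 10.6), and F7, coagulation factor VII, with 65 and 0 UMIs. The WT log2 ratio of Saa3 was -3.09. The 11 neutrophil markers summed to 631 and 390 CPM in the class, and the 8 microglia markers to 359 and 353 CPM, with Sall1 at 0 on day 21. In the 141 and 73 barcodes with at most 1 marker of another class, 13 of 19 interferon-gamma genes were lower, where 10.6% of all genes were, with a median of -1.33. MHC class II was lower in 2 of 9 genes there (median -0.61, against -1.10 in WT barcodes chosen the same way), and type I interferon genes in 4 of 23, with 1 higher (median -0.50). In the same barcodes 6 of 11 chemokines were lower (median -1.34), 6 of 10 alternative activation genes (median -1.43), and 15 of 18 cell cycle genes were higher (median 1.79), where 12.3% of all genes were.

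Neutrophil-like barcodes differed by composition of RNA as well as by list. Of 5894 measured genes 24.3% were past the fold, 1.51% higher and 22.8% lower, and the median of all genes was -0.48. The messages of calprotectin took more of the total on day 21: its subunit S100a8 had 118619 and 199154 CPM and the partner S100a9 76426 and 128513 CPM, each 1.68-fold. After TMM scaling, which discounts such dominant genes, the median of all genes was 0.08, and 383 genes were higher and 461 lower in place of 89 and 1341; with DESeq2 size factors the numbers were 351 and 511. Most list medians below are therefore given with the value after TMM scaling, whereas levels, folds and counts of genes are on the class total. Median depth also differed, at 5327.5 UMIs per barcode on day 13 and 3353 on day 21.

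The interferon lists of neutrophil-like barcodes were lower beyond that shift. All 17 measured interferon-gamma genes were lower, with a median of -2.91, or -2.41 after TMM scaling, against -0.83 in WT. Gbp2 had 338 and 11.1 CPM, 30.5-fold lower (20.6 to 47.1). Cxcl10 had 111 and 5.53 CPM, 20.1-fold lower (11.5 to 38.4), with a WT log2 ratio of 1.52. These folds exceeded those of the same genes in microglia-like barcodes, though no test of that difference was possible. Of 21 type I genes 18 were lower with a median of -2.17 (-1.66 after TMM scaling), against -1.14 in WT. Among them was Ifit1, which binds viral RNA, with 89.6 and 9.79 CPM, 9.16-fold lower (5.89 to 14.9). Of 18 class I genes 15 were lower with a median of -1.68 (-1.17 after TMM scaling), among them H2-K1 with 1141 and 340 CPM, 3.36-fold lower (3.09 to 3.65).

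Granule protein genes, which neutrophils make as they mature in the marrow, had 1 of 16 lower and 0 higher, with a median of 0.18, or 0.70 after TMM scaling. The list also holds the calprotectin genes S100a8 and S100a9. Camp had 17588 and 30901 CPM, 1.76-fold higher (1.73 to 1.78), Ngp 34866 and 40025 CPM, and Ly6g, the surface marker of mature neutrophils, 595 and 1101 CPM, 1.85-fold higher (1.72 to 1.99). Chil3 was the exception, with 9205 and 3652 CPM, 2.52-fold lower (2.46 to 2.59). The median barcode, thinned to 1400 UMIs, held 518.5 granule UMIs on day 13 and 636 on day 21, and 503.5 and 584 in WT. Late and activation genes were lower in 11 of 19, with a median of -1.09 (-0.57 after TMM scaling), against -0.39 in WT. Stfa2, a stefin protease inhibitor of activated neutrophils, had 161 and 2.13 CPM, 75.5-fold lower (32.0 to 234), with a WT log2 ratio of -3.54, and Cxcl2 had 281 and 58.3 CPM, with a WT log2 ratio of 0.89. The stefin genes lie in a cluster of close copies, so how reads were divided between them is uncertain.

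Outside the lists Saa3 had 791 UMIs on day 13 and 0 on day 21, and its WT log2 ratio was -3.67. AW112010, a transcript induced by interferon, had 1068 and 71.0 CPM, 15.0-fold lower (12.8 to 17.7). Higher on day 21 were the kinase Stk39, with 7.33 and 49.8 CPM, 6.79-fold (3.82 to 13.1), Tmcc1, with 150 and 433 CPM, 2.89-fold (2.52 to 3.32), and Fabp4, a fatty acid carrier, with 0 and 39 UMIs. Markers of other cells were higher on day 13: the 5 myeloid progenitor markers summed to 1729 and 350 CPM, the 7 monocyte/macrophage markers to 3456 and 2005 CPM (Vcan at 0 on day 21), the 11 B cell markers to 125 and 30.2 CPM (Blk at 0 on day 13, Pax5 on day 21) and the 5 red cell markers to 195 and 10.6 CPM (Alas2 at 0 on day 21). Of the 13 conventional dendritic markers, which summed to 134 and 27.7 CPM, 7 were at 0 on day 21, among them Flt3 and Zbtb46.

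In the 92 and 331 neutrophil-like barcodes with at most 1 marker of another class, 9 of 11 measured interferon-gamma genes were lower (median -2.55, against -1.82 in WT barcodes chosen the same way), where 8.59% of all genes were. Each median is over the genes measured in that genotype. Over the interferon-gamma genes measured in the whole class, the KO median there was -1.85. For type I interferon 15 of 18 were lower (median -1.77, against -1.72 in WT barcodes chosen the same way). Late and activation genes were lower in 8 of 18 and higher in 2, where 8.59% and 8.27% of all genes were. Their median was -0.47, against -1.63 in WT barcodes chosen the same way. Stfa2 had 72 and 0 UMIs and Saa3 25 and 0. The granule median was then -0.21 and Ly6g had a log2 ratio of -0.03, while those of Camp (0.44) and S100a8 (0.24) stayed above 0. Cell cycle genes, 12 of 23 of them lower in the whole class with a median of -1.09, had a median of 0.61 with 5 of 15 higher, where 8.27% of all genes were higher. Ribosomal protein genes were lower in 21 of 26 in the whole class (median -1.26, or -0.74 after TMM scaling) and in 0 of 26 there (median -0.46).

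In T-like barcodes 5.86% of 7822 measured genes were past the fold, 1.93% higher and 3.92% lower. Of 19 interferon-gamma genes 12 were lower and 0 higher, with a median of -1.28 against -0.46 in WT. Gbp2 had 504 and 93.7 CPM, 5.37-fold lower (4.53 to 6.43). Of 23 type I genes 9 were lower with a median of -0.72, Irf7 among them with 274 and 95.7 CPM. Cell cycle genes were lower in 13 of 23, with a median of -1.19 and a WT median of -0.80. Mki67, the Ki-67 antigen, had 49.8 and 12.5 CPM, 3.97-fold lower (2.46 to 6.77), and Top2a 97.5 and 33.7 CPM, 2.90-fold lower (2.15 to 3.97).

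The programmes that define T cell states were closer between days. Of 15 activation and checkpoint genes 1 was higher and 0 lower, with a median of 0.11: the transcription factor Tox had 12.9 and 42.9 CPM, but -0.16 on the log2 scale in barcodes with at most 1 marker of another class. Of 11 naive and homing genes 1 was higher, Dapl1, with 16.3 and 48.8 CPM (3.0-fold, 2.08 to 4.35). Of 11 Th1 genes 1 was lower, and Ifng, which encodes interferon-gamma itself, had 26.8 and 20.5 CPM, a ratio of 0.765 whose interval (0.490 to 1.16) spans 1. The WT log2 ratio of Ifng was -1.33. In barcodes with at most 1 marker of another class the log2 ratio of Ifng was above 0 in both genotypes. It was 0.52 in KO, from 8 and 11 UMIs, and 0.66 in WT barcodes chosen the same way. A difference in the interferon-gamma message itself was therefore not detectable in KO T-like barcodes at this depth. Of 10 regulatory T cell genes 0 were past the fold; Foxp3, their defining factor, had 36.6 and 62.0 CPM, 1.70-fold (1.28 to 2.24), and Ikzf2 170 and 287 CPM, 1.69-fold (1.49 to 1.92). Of 13 cytotoxic genes 3 were lower and 1 higher, with a median of 0.18: Gzmb was lower, with 176 and 81.8 CPM, 2.15-fold (1.77 to 2.63), and the chemokine Xcl1 higher, with 25.8 and 52.8 CPM, 2.04-fold (1.49 to 2.81). In barcodes with at most 1 marker of another class 1 of 14 was lower and 3 were higher, where 9.9% and 9.8% of all genes were, with a median of 0.16.

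At 1400 UMIs per barcode, 11.4% of T-like barcodes on day 13 and 11.1% on day 21 held a Cd4 UMI, and 12.4% and 12.4% a Cd8a or Cd8b1 UMI. Foxp3 UMIs were found in 4.43% and 8.57%. Among B-like barcodes, which lack these genes, the share was 0.200% for Cd4 and 0.798% for Cd8 on day 13. Without thinning the shares were 37.8% and 26.3% for Cd4 and 14.8% and 16.5% for Foxp3, from median depths of 4551.5 and 3294 UMIs.

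Other cells' messages were prominent in T-like barcodes. The 8 microglia markers summed to 1684 CPM on day 13 and 2819 on day 21, and the 7 monocyte/macrophage markers to 1661 and 765 CPM, with none at 0. The genes with the largest ratios went the same way as these sums: Fcrls had 27.7 and 236 CPM, Chil3 837 and 52.1 CPM and Saa3 648 and 0.660 CPM. In the 128 and 130 T-like barcodes with at most 1 marker of another class, these had 0 and 5, 21 and 4, and 5 and 0 UMIs. In those barcodes 7 of 16 interferon-gamma genes were lower (median -0.94), where 9.9% of all genes were, 11 of 21 type I genes (median -1.14) and 6 of 18 cell cycle genes (median -0.65). Gbp2 had a log2 ratio of -1.48 there, Irf7 -1.97, Mki67 -1.91 from 9 and 2 UMIs, Dapl1 1.56 and Foxp3 -0.02.

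B-like barcodes, whose median depth was 2635 and 2033 UMIs, had 10.0% of 7092 genes past the fold, 4.68% higher and 5.36% lower. Of 19 interferon-gamma genes 14 were lower and 0 higher, with a median of -1.65 against -0.70 in WT. Of 19 type I genes 13 were lower, with a median of -1.22 against -1.02 in WT. Gbp2 had 248 and 31.2 CPM, 7.94-fold lower (5.17 to 12.8), Irf7 158 and 34.1 CPM, 4.62-fold lower (3.04 to 7.35), and Isg15 118 and 28.4 CPM, 4.14-fold lower (2.61 to 6.93). MHC class II was level in these cells, which express it constitutively: 0 of 11 genes were past the fold, the median was -0.04, and Cd74 had 20544 and 21838 CPM. Ciita had 84.3 and 121 CPM, a ratio of 1.43 (1.08 to 1.89), on the opposite side of 1 from microglia-like barcodes.

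Of 16 B cell maturation genes 5 were higher and 0 lower, with a median of 0.24. Fcer2a, the IgE receptor CD23 of follicular B cells, had 48.6 and 128 CPM, 2.63-fold higher (1.92 to 3.6), and Cr2, complement receptor 2, 48.0 and 102 CPM, 2.13-fold higher (1.52 to 2.97), with a WT log2 ratio of -0.78. Between these 2 days, the surrogate light chain genes of B cell precursors were found almost only on day 21, as Vpreb1 with 1 and 13 UMIs and Igll1 with 0 and 10. On day 0 the KO B-like barcodes held 22 Vpreb1 and 7 Igll1 UMIs. Those were 102 and 32.6 CPM, against 18.5 and 14.2 CPM on day 21. Markers of mature and of early stages were therefore both higher on day 21 than on day 13. Of 22 cell cycle genes 12 were higher and 0 lower (median 1.02, against 0.28 in WT), as for Stmn1, a microtubule regulator of dividing cells, with 28.9 and 89.4 CPM, 3.09-fold (2.09 to 4.61). Hes1, a Notch target, had 16 and 44 UMIs. Lower were Saa3, with 598 and 1 UMIs, Ly6i, with 138 and 0, Fcgr4, with 93 and 0, and Serpina3f, a protease inhibitor, with 204 and 4. The 7 monocyte/macrophage markers summed to 767 and 319 CPM in the class, Vcan being at 0 on day 21. In the 378 and 244 barcodes with at most 1 marker of another class Saa3 had 19 and 1 UMIs and Fcgr4 9 and 0, whereas Serpina3f had 147 and 2. There 10 of 14 interferon-gamma genes were lower (median -1.81), where 4.18% of all genes were, and 11 of 19 cell cycle genes were higher (median 1.43), where 8.28% of all genes were. For type I interferon 8 of 17 were lower there (median -0.97, against -1.17 in WT barcodes chosen the same way).

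**Figure D4:**
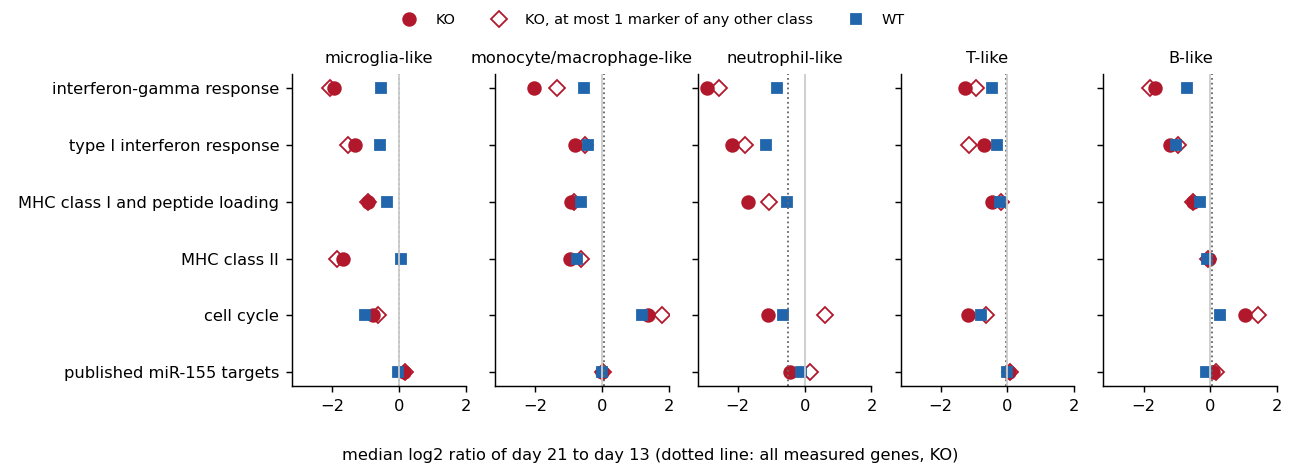
Median log2 ratio of day 21 to day 13 for 6 gene lists in each of 5 classes, with filled circles for KO, open diamonds for KO barcodes with at most 1 marker of another class, squares for WT and a dotted line at the median of all KO genes of the class. The interferon-gamma median is below the dotted line in all 5 classes, from -2.91 in neutrophil-like to -1.28 in T-like barcodes, and the MHC class II median is -1.66 in microglia-like and -0.04 in B-like barcodes.

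Set side by side, the 5 classes shared the direction of the interferon-gamma list and parted on others. The medians were -1.95 in microglia-like, -2.03 in monocyte/macrophage-like, -2.91 in neutrophil-like, -1.28 in T-like and -1.65 in B-like barcodes, and 0 members were higher past the fold in each. Gbp2 was lower past the fold in all 5. Cell cycle medians were 1.39 in monocyte/macrophage-like and 1.02 in B-like barcodes and -0.77 in microglia-like and -1.19 in T-like barcodes. The WT medians of these classes were 1.21, 0.28, -1.01 and -0.80. In neutrophil-like barcodes the KO median was -1.09, but 0.61 in barcodes with at most 1 marker of another class, and the WT median was -0.64. Published targets of miR-155, which the knockout cannot repress on either day, had medians of 0.14, 0.01, -0.44, 0.06 and 0.07 in the microglia-like, monocyte/macrophage-like, neutrophil-like, T-like and B-like classes beside 0.00, 0.08, -0.48, -0.04 and 0.06 for all genes of those classes. Of 22 targets measured in microglia-like barcodes 3 were higher and 1, Socs1, lower, where 3.3% of all genes were higher and 4.43% lower. The 3 were Maf, a macrophage transcription factor, with 76.2 and 238 CPM (3.13-fold, 2.59 to 3.82), Ets1, with 10.5 and 29.3 CPM, and S1pr1, the sphingosine-1-phosphate receptor, 3.18-fold higher (1.28 to 10.2). Inpp5d, the phosphatase SHIP1, had 179 and 232 CPM, a ratio of 1.29 (1.13 to 1.48).

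**Figure D5:**
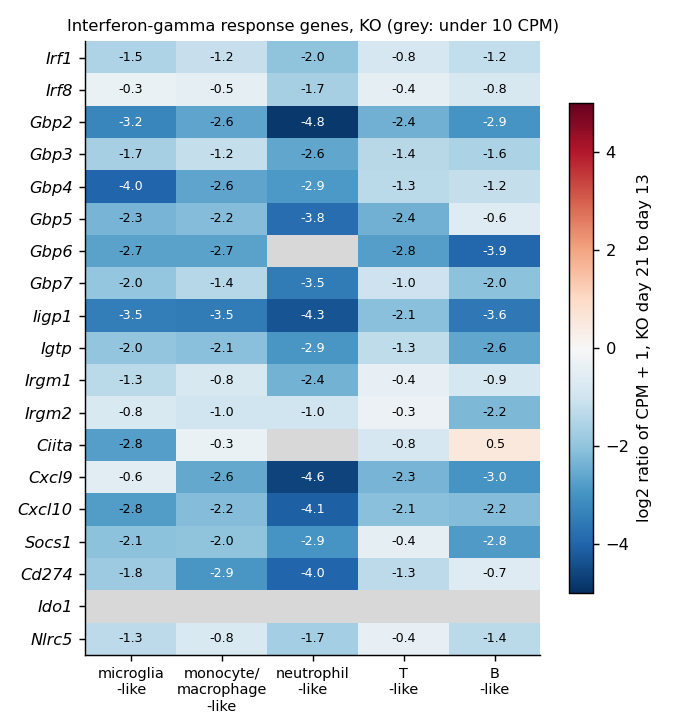
Heat map of the log2 ratio of day 21 to day 13 in KO for 19 interferon-gamma response genes (rows) in 5 classes (columns), with grey where both libraries were under 10 CPM. Gbp2 ranges from -4.81 in neutrophil-like to -2.41 in T-like barcodes, while Ciita is -2.75 in microglia-like and 0.51 in B-like barcodes.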

How the data were processed

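Unnormalized UMI counts for each gene and barcode were deposited; the authors made them with Cell Ranger 2.0.2 on mm10, per the submitters' processing notes, which name no further options. The 28692 rows gave 28625 symbols after rows of 1 symbol were summed. Members, markers and gene lists were chosen with earlier results of these data known, and the gate rule was set with the distributions of marker counts in view. Of 12 classes, a barcode took the one with most detected markers, given 3 or more and a margin of 2. Doublets were not called and remain. Class sums gave CPM, with a pseudocount of 1. Genes, list members included, were ranked by the bound of the exact interval of the CPM ratio nearest 1, and the 10 highest and 10 lowest per class (5 and 5 in B-like barcodes) were eligible; gate markers, other-cell markers, mitochondrial, ribosomal, hemoglobin, immunoglobulin and sex-linked genes were left out, and the text describes a selection made after the values were seen. Of the 30 lists, 3 genes had no row. Sequences came from RefSeq tables of GRCm38.p6. Scripts used numpy 2.4.6, scipy 1.17.1, pandas 2.3.3 and, for scaling, edgeR 4.0.16 and DESeq2 1.42.0, and were tested on simulated data. Alternatives covered scaling, filter, pseudocount, fold, depth and gate. Class depths are medians of 2033 to 5608.5 UMIs per barcode. Some genes that count in the lists are not reported here by name.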

Additional observations from a re-analysis of the deposited data

Results flagged for a closer look

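In 3 results the KO and WT libraries lay on opposite sides between days 13 and 21, with 1 library per genotype and day, and none of these differences was tested. The microglia-like share was 3.20 times its day 13 value on day 21 in KO and 0.368 times in WT. The T-like share was 0.548 times its day 13 value in KO and 1.84 times in WT. The median log2 ratio of the chemokine list in monocyte/macrophage-like barcodes was -1.37 in KO and 0.66 in WT.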

How the results depend on the processing

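No paired analysis was possible because each group was 1 library without a replicate number. The setting that kept only barcodes with at most 1 marker of any other class was chosen after seeing the data. The choice to give directional counts of genes as supporting values was made after they were seen. Over all recomputations, list medians were close to the reported value in 744, moved in 75 and reversed in 1. Ratios of shares stayed within their interval in 42 and moved in 6. Counts of genes past the fold stayed within 1.5 times in 82 and moved in 83. Log2 ratios of named genes stayed within their interval in 525, moved in 189 and reversed in 6. Ratios of shares that moved were 0.336 for monocyte/macrophage-like and 0.206 for conventional dendritic-like barcodes after thinning, and, with at most 1 other marker, 0.172 for conventional dendritic-like, 0.0717 for plasmacytoid dendritic-like, 2.97 for neutrophil-like and 0.837 for T-like barcodes. The 593 genes past the fold in microglia-like barcodes became 302 with a filter of 30 CPM, 1453 with none beyond 1 UMI, 382 with a pseudocount of 5 CPM and 1709 at 1.5-fold. For monocyte/macrophage-like barcodes 819 became 428, 1690, 534 and 2005 under those settings, 1575 after thinning and 1622 with at most 1 other marker. For neutrophil-like barcodes 1430 became 651, 3035, 903 and 2835, 844 with TMM scaling, 862 with DESeq2 size factors and 791 with at most 1 other marker. For T-like barcodes 458 became 206, 1293, 283 and 1490, 1452 after thinning and 1492 with at most 1 other marker. For B-like barcodes 712 became 233, 2643, 401 and 1888, and 1100 after thinning. The higher share of these genes moved from 6.22% to 45.4% (TMM), 40.7% (DESeq2) and 49.1% (at most 1 other marker) in neutrophil-like barcodes, from 51.4% to 41.3% and 41.1% by scaling in monocyte/macrophage-like and from 46.6% to 34.6% and 33.8% in B-like barcodes, and with at most 1 other marker to 66.4% in B-like, 54.5% in microglia-like and 49.7% in T-like barcodes. Reversed were the neutrophil-like cell cycle median, 0.43 with at most 1 other marker over the genes measured in the whole class, and in T-like barcodes Clec4b1 (-1.67 after thinning), Ccl8 (-1.93 with a stricter gate, -3.71 without the highest 5% of UMI totals), Arg1 (2.71), Ifitm1 (0.43) and Gzma (0.07), the last 3 with at most 1 other marker. The causes were not tested. Depth limits genes under 10 CPM and classes under 50 barcodes, which were not compared across genes.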
